A study of Mus musculus with 17 samples.

Results

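The cathepsins are the main protein-degrading enzymes of the lysosome, and their transcripts were followed here in mouse macrophages that lacked or carried SOCS3 and were stimulated with IL-6. All probe sets whose only gene symbol in the platform annotation was Ctsa, Ctsb, Ctsc, Ctsd, Ctse, Ctsh, Ctsk, Ctsl, Ctss or Ctsz were taken, which gave 17 of the 12488 probe sets on the array and 10 of the 8252 genes with a single symbol. Ctsb was measured by 4 probe sets, Ctsc and Ctse by 3 each, and the other 7 genes by 1 each. Probe sets of a gene are numbered here by falling mean signal.

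Irradiated mice had received fetal liver cells of SOCS3-/- embryos (KO) or of SOCS3+/+ embryos (WT), and macrophages were grown from donor-derived bone marrow cells of these hosts. SOCS3 is a feedback inhibitor of signalling through gp130, the receptor subunit that IL-6 uses. The groups were KO unstimulated, KO with IL-6 at 10 ng/ml for 100 min, KO with IL-6 for 400 min (3 arrays each), WT unstimulated (2 arrays), and WT with IL-6 for 100 min and for 400 min (3 arrays each), 17 arrays in all. Every macrophage was thus grown from hematopoietic cells that had passed through an irradiated host, in both genotypes, and the labels do not say whether replicates were separate cultures, mice or donors, so that the p-values measure the spread between these arrays, which may be technical. The question is which cathepsin transcripts IL-6 changed and whether the loss of SOCS3 changed their level or their response.

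Cathepsins are made as inactive precursors, carried to lysosomes, and activated there at acid pH. Most belong to the papain family of cysteine proteases, while cathepsins D and E are aspartic proteases and cathepsin A is a serine carboxypeptidase. In macrophages they break down phagocytosed and endogenous proteins, and cathepsins S and L also trim the invariant chain that guards the peptide groove of MHC class II molecules.

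All values below are linear intensities after quantile normalization between arrays. They compare arrays within a probe set and not the levels of different genes. In bulk RNA, fewer cells of a type and less RNA per cell cannot be told apart. Differences are on the log2 scale with their standard error (SE), from limma's moderated test over all 17 arrays, and a probe set was called at a Benjamini-Hochberg adjusted p under 0.05 over the 9871 probe sets tested. All 17 cathepsin probe sets passed the filter on dim signals, and a single value, that of Ctsc probe set 3 on a KO 100 min array, lay under the floor of 22.0.

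The cells had the markers of macrophages on every array. Csf1r, the receptor of macrophage colony-stimulating factor, ranged from 13433 to 32965 over the 17 arrays, Lyz2 (lysozyme) from 22014 to 32381 and Cd68 from 9154 to 14009. The summed signal of 11 macrophage markers lay between 97645 and 124242 on KO arrays and between 95789.9 and 128738 on WT arrays. Of the 5 arrays numbered replicate 3, 4 stood apart from the 12 arrays numbered 1 and 2 on principal component 1. That component held 12.7% of the variance over all tested probe sets. These 4 arrays scored 26.6 to 58.1, and no array of replicates 1 and 2 exceeded 2.27. The array labelled KO 400 min replicate 3 scored 0.89, within the range of replicates 1 and 2. It was still far above the other KO 400 min arrays, at -30.3 and -29.9. The targeted gene, Socs3 (probe set 1), reached 48.6 and 78.5 on the KO 400 min arrays of replicates 1 and 2 but 903 on the array labelled KO 400 min replicate 3, against 2400.5, 2036 and 2117 on the WT 400 min arrays. On the replicate 3 arrays at 100 min it read 179 in KO and 432 in WT cells, against 66.8 and 86.2 in KO and 2552 and 1809 in WT cells of replicates 1 and 2. Differences between KO and WT cells are therefore also given for replicates 1 and 2 and for replicate 3.

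Promoter windows from RefSeq (GRCm38.p6) were found for 7 of the 10 genes, in 8 windows. Each window ran from 250 bases before to 50 bases after a gene's start, and both strands were searched for TTCNNNGAA, the pattern bound by STAT factors such as the STAT3 that IL-6 activates, and for GTCACGTG, the core pattern of lysosomal gene promoters bound by TFEB, which holds the general pattern CACGTG within it. Ctsc and Ctsd are shown because Ctsc was the cathepsin called for IL-6 and Ctsd is a lysosomal protease whose signal was not called for IL-6. The stretches shown lie before the genes' annotated starts, and the capitals mark TTCNNNGAA in Ctsc (chr7:88277835-88278023, plus strand) and GTCACGTG, read here on the opposite strand as CACGTGAC, in Ctsd (chr7:142387828-142388077, minus strand).
Ctsc: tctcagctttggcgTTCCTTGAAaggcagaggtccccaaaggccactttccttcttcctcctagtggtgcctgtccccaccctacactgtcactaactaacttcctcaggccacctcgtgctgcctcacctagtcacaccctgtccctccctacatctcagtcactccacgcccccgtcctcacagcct
Ctsd: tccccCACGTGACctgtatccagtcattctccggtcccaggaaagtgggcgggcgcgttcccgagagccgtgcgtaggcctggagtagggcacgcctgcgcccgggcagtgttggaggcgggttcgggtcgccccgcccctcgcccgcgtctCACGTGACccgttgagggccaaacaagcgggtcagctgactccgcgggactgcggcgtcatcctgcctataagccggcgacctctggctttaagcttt
TTCNNNGAA was found in the Ctsc window and in none of the other 7, at position -236 counted from the gene's first base as 0, and in 8.3% of the 32851 promoter windows of the table. GTCACGTG occurred at -245 and -98 in Ctsd and at -14 and 5 in a Ctsa window, and in 2.25% of all windows. The shorter CACGTG, present in 7.15% of all windows, was also found at -236 in Ctsl. These are matches of letters and not shown to be binding sites.

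Among the 17 probe sets, 1 was called higher after IL-6, Ctsc probe set 1. The labels name no unstimulated group at 100 or 400 min. An effect of IL-6 thus cannot be told apart from one of time in culture. Cathepsin C, or dipeptidyl peptidase I, removes dipeptides from the ends of proteins and activates the granule serine proteases of neutrophils, mast cells and cytotoxic lymphocytes. In KO cells its values were 3051, 2731 and 2285 unstimulated, 3667, 3724 and 2816 after 100 min and 5927, 6103 and 4555 after 400 min. In WT cells they were 2997 and 2088 unstimulated, 4377, 3375 and 3253 after 100 min and 6002, 6126 and 5135 after 400 min. Every 400 min array was above every unstimulated and every 100 min array in both genotypes.

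The rise of Ctsc probe set 1 at 400 min, averaged over both genotypes, was 1.12 (SE 0.17, adjusted p = 0.00584), a 2.17-fold change with a 95% interval of 0.74 to 1.49 on the log2 scale. It was the only cathepsin probe set called there, 1 of 17, where 1.5% of all 9871 probe sets were called in either direction. In KO cells alone the rise was 1.04 (SE 0.23, adjusted p = 0.0377), again 1 of 17 against 1.82% of all probe sets. In WT cells, with 2 unstimulated arrays, it was 1.20 (SE 0.26, adjusted p = 0.230) and no cathepsin was called, where 0.0101% of all probe sets, a single one, were called. The KO response minus the WT response was -0.16, with an interval of -0.91 to 0.59. None of the 17 was called in that difference (0% of all probe sets, with 531 at an unadjusted p under 0.05). A difference between the responses within these bounds is not excluded. Paired by label number, the 400 min array exceeded the unstimulated one by 0.96, 1.16 and 1.00 in KO and by 1.00 and 1.55 in WT cells.

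The call over both genotypes was kept in all 17 fits that each left out 1 array, with the highest adjusted p at 0.0437. The KO call was less firm. It was lost within replicates 1 and 2 (adjusted p = 0.0641) and without any of 9 single arrays, namely the 3 KO unstimulated arrays, KO 100 min replicate 2, the KO and the WT 400 min arrays of replicates 1 and 2, and WT 100 min replicate 2, at adjusted p of 0.0521 to 0.145. The fit without the array labelled KO 400 min replicate 3 kept it, at 1.17 (adjusted p = 0.0364).

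Of the macrophage markers, Fcgr1, a high-affinity Fc receptor, also rose at 400 min, by 1.38 over both genotypes (adjusted p = 0.0256). It was the only one of the 11 called there, where 1.5% of all probe sets were. Of the markers of neutrophils and their precursors, cells in which cathepsin C activates granule proteases, 0 of 9 tested were called for IL-6. Their summed signal was 1250 to 1879 in KO 400 min and 1062 to 1367 in KO unstimulated cells, and 987 to 1896 in WT 400 min and 1688 to 1902 in WT unstimulated cells. Dendritic cell markers had higher sums with IL-6 in KO cells, at 2284 to 2486 in KO 400 min and 1389 to 1606 in KO unstimulated cells, against 1308 to 1745 in WT 400 min and 1765 to 2021 in WT unstimulated cells. The median difference of the 7 tested dendritic cell genes at 400 min was 0.79 in KO cells, against -0.04 over all probe sets, with no gene called. At 100 min over both genotypes 1 of the 7 was called, Cd83, an activation marker of dendritic cells, at 2.74 (adjusted p = 0.0183). Over all probe sets 0.628% were called there. The sums of 7 B cell markers were 1727 to 2108 in KO 400 min and 1602 to 4280 in KO unstimulated cells, and 2272 to 4243 in WT 400 min and 6186 to 6942 in WT unstimulated cells. The part of these markers in the Ctsc signal was not tested.

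The other Ctsc probe sets did not give the same result. Probe set 2 was 0.79 (SE 0.68, adjusted p = 0.745) and probe set 3 0.41 (SE 0.53, adjusted p = 0.850) higher at 400 min than unstimulated over both genotypes, with intervals reaching from below 0 to 2.25 and 1.54. Over the 17 arrays the log2 values of probe set 1 had a Pearson correlation of 0.11 with those of either of them, while probe sets 2 and 3 had one of 0.79 with each other. These are descriptions over arrays that share normalization and genotype groups.

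**Figure D1:**
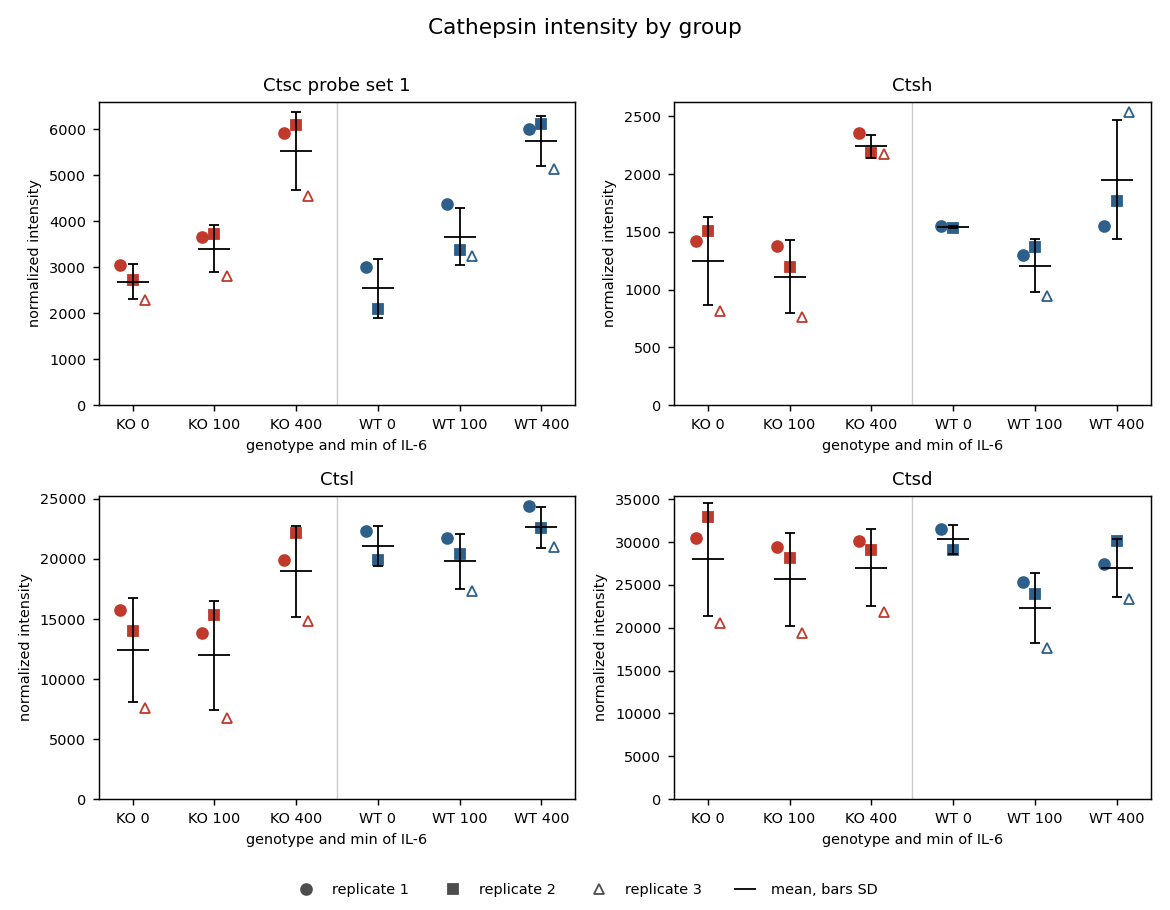
Normalized intensity (linear axis) of Ctsc probe set 1, Ctsh, Ctsl and Ctsd by group, KO groups left of WT groups and times rising from unstimulated to 100 and 400 min; points are single arrays, marker shapes give the replicate number, and bars give mean ± SD. Ctsc probe set 1 sits between 4555 and 6126 on the 400 min arrays of both genotypes and between 2088 and 3051 on the unstimulated arrays, while the Ctsd arrays of both times overlap.

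At 100 min no cathepsin probe set was called over both genotypes (0 of 17, where 0.628% of all probe sets were), in KO cells (0 of 17 against 0.577%) or in WT cells (0 of 17 against 0.0101%), and none in the difference between the responses at 100 min (0% of all, with 361 at an unadjusted p under 0.05). By limma's unadjusted p, 1 of the 17 was under 0.05 at 100 min over both genotypes. Ctsc probe set 1 was that one, at 0.44 (SE 0.17, adjusted p = 0.472). Over all 17 the median difference at 100 min was -0.18, against -0.02 over all tested probe sets, and at 400 min 0.25 against -0.03. In KO cells alone, with a replicate 3 array at each time, it was -0.03 against -0.04 at 100 min and 0.23 against -0.04 at 400 min. WT unstimulated cells had no replicate 3 array. The replicate 3 difference given below therefore enters the fitted values in WT cells, over both genotypes and between genotypes.

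Of the remaining cysteine cathepsins, Ctsh had the widest gap at 400 min. Cathepsin H is an aminopeptidase that also takes part in processing of surfactant protein B in lung. Its values in KO cells were 1420.5, 1512 and 813 unstimulated, 1377, 1198 and 763 after 100 min, and 2357, 2186 and 2179 after 400 min. In WT cells they were 1551 and 1537 unstimulated, 1305, 1373 and 947 after 100 min, and 1554, 1768 and 2537 after 400 min. The 3 KO 400 min arrays lay above all other KO arrays, and all WT 400 min arrays lay above the WT unstimulated ones, narrowly on replicate 1. The difference at 400 min was 0.89 in KO cells (SE 0.30, adjusted p = 0.204) and 0.60 over both genotypes (SE 0.23, adjusted p = 0.284), and neither passed the test over all probe sets. The KO 100 min and KO unstimulated arrays overlapped.

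Cathepsin L, encoded by Ctsl, is an endopeptidase active on the invariant chain and on many lysosomal substrates. Its signal was 15777, 14009 and 7558 in KO unstimulated cells, 13818, 15298 and 6797 after 100 min and 19939.6, 22161 and 14808 after 400 min. WT cells gave 22295 and 19939.6 unstimulated, 21738, 20379 and 17309 after 100 min and 24386, 22568 and 20992 after 400 min. In KO cells the replicate 3 array was the lowest at each time, and at each number the 400 min array was above the unstimulated one. The 400 min difference was 0.66 (SE 0.33, adjusted p = 0.476) in KO cells and 0.10 (SE 0.37, adjusted p = 0.994) in WT cells, neither called.

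Cathepsin K, known as the collagen-degrading enzyme of osteoclasts, had a dim probe set. Ctsk values lay between 150.0 and 395 on KO arrays and between 155 and 381 on WT arrays. At 400 min the difference was 0.67 in KO cells (SE 0.37, adjusted p = 0.535), with an interval of -0.13 to 1.47. The summed signal of 7 osteoclast markers, which hold no call for IL-6, ranged from 854 to 1513 over KO and from 881 to 1329 over WT arrays, and Acp5, the tartrate-resistant acid phosphatase that marks osteoclasts, ranged from 46.5 to 300 over all arrays.

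For cathepsin S, the protease that makes the last cut of the invariant chain, the 400 min difference was 0.28 over both genotypes (SE 0.19, adjusted p = 0.626). Cathepsin Z, a carboxypeptidase also called cathepsin X, had values between 4315 and 7181 on KO arrays and between 4643 and 7181 on WT arrays. Its 400 min difference was -0.31 in KO cells (SE 0.21, adjusted p = 0.644) and -0.05 in WT cells.

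Ctsb encodes a cysteine protease that cuts both within proteins and at their carboxyl end. Its 4 probe sets differed between 400 min and unstimulated cells by 0.06, 0.25, less than 0.01 and -0.35 over both genotypes, all uncalled. Probe set 1 is so bright that quantile normalization gave several arrays the same value. It read 48771 both on KO 100 min replicate 2, deposited at 44460, and on WT unstimulated replicate 2, deposited at 50917. Small differences of this probe set therefore depend on the normalization. The aspartic protease cathepsin D, the main acid endopeptidase of lysosomes, was -0.11 (SE 0.19, interval -0.52 to 0.31). Cathepsin A, which also shields beta-galactosidase and neuraminidase from degradation in the lysosome, had a difference within 0.01 of 0, with an interval of -0.50 to 0.50. Paired by label number, the Ctsa difference was 0.03, -0.04 and 0.37 in KO and 0.23 and 0 in WT cells. The WT 400 min group held a low replicate 3 array, at 5098, and the WT unstimulated group had no replicate 3 array. The same holds for Ctsd and for Ctsb probe sets 1 to 3, which were also lower on replicate 3. Changes of Ctsa and Ctsd within the intervals given are not excluded with this number of arrays.

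**Figure D2:**
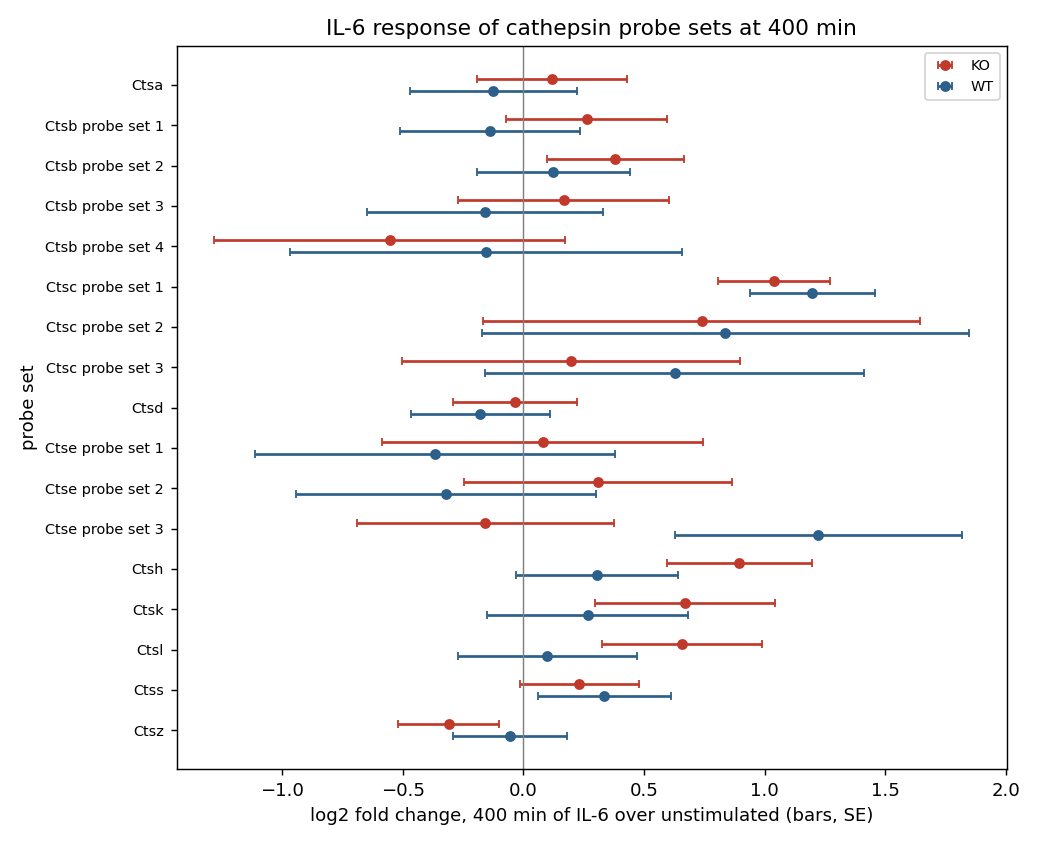
Log2 difference between 400 min of IL-6 and unstimulated cells for the 17 cathepsin probe sets, in KO and in WT cells; bars are standard errors from limma and the vertical line marks no change. Ctsc probe set 1 is at 1.04 in KO and 1.20 in WT cells, and in KO cells it is the only one of the 17 that was called.

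Between genotypes, averaged over the 3 times, Ctse probe set 3 was the only cathepsin probe set called over all 17 arrays. Other probe sets were called only within replicates 1 and 2, as given below. Cathepsin E is an aspartic protease of endosomes, found in immune cells and gastric epithelium. Its signal was 636, 379.6 and 724 in KO unstimulated cells, 633, 556 and 684 after 100 min and 526, 377 and 637 after 400 min. In WT cells it was 154 and 62.0 unstimulated, 150.2, 173 and 352 after 100 min, and 152, 136 and 575 after 400 min. All 9 KO arrays lay between 377 and 724, with a median of 633. Of the 8 WT arrays, 7 lay between 62.0 and 352, all below every KO array, and WT 400 min replicate 3, at 575, overlapped with them.

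Averaged over the 3 times, Ctse probe set 3 was 1.74 higher in KO than in WT cells (SE 0.32, adjusted p = 0.0287, interval 1.06 to 2.43), a 3.34-fold difference. It was 1 of 17 cathepsin probe sets called there, against 0.446% of all probe sets. At single times the difference was 2.52 unstimulated (adjusted p = 0.450), 1.57 at 100 min (adjusted p = 0.711) and 1.14 at 400 min (adjusted p = 0.573). No cathepsin was called at a single time, where 0% of all probe sets were called unstimulated (591 at an unadjusted p under 0.05), 0.0405% at 100 min and 0.365% at 400 min. IL-6 gave no call for it in either genotype.

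Within replicates 1 and 2 the KO arrays of Ctse probe set 3 spanned 377 to 636 and the WT arrays 62.0 to 173, a difference of 1.95 (adjusted p = 0.00852). On replicate 3 alone, KO minus WT was 0.96 at 100 min and 0.15 at 400 min, with 1 array a group and no test. The call was lost in 11 of the 17 fits that left out 1 array, at adjusted p of 0.0528 to 0.121. The 6 arrays without which it was kept were KO unstimulated replicate 2, WT unstimulated replicate 1 and the 4 stimulated arrays of replicate 3. Leaving out the array labelled KO 400 min replicate 3 kept it, at 1.68 (adjusted p = 0.0411).

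Sex-linked signals separated the genotypes as well. Xist, the RNA that silences an X chromosome in female cells, read 228 to 993 on KO arrays and 11.1 to 188 on WT arrays, and the Y-linked Eif2s3y read 7.67 to 112 on KO arrays and 245 to 790 on WT arrays, with no overlap for either. An effect of donor sex on the cathepsin signals between KO and WT cells cannot be told apart from that of the genotype. The summed signal of 8 dendritic cell markers was 2125 to 2533 in KO and 1364 to 1772 in WT cells at 100 min, without overlap at that time or at 400 min (values above), while the unstimulated KO arrays lay below the WT ones. The sum of the B cell markers was 1704 to 3231 in KO and 1709 to 4812 in WT cells at 100 min, and lower in KO than in WT cells without overlap both unstimulated and at 400 min. No gene of either list was called between genotypes over 3 times. Their part in the Ctse signal was not tested.

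Ctse probe sets 1 and 2 ran the other way. Probe set 1 read 3236, 2583 and 1715 in KO unstimulated, 2511, 2499 and 1841 in KO 100 min and 2899, 2069 and 2824 in KO 400 min cells. In WT cells it read 8841 and 6202 unstimulated, 8264, 5567 and 1129 after 100 min and 10131, 8793 and 2136 after 400 min. On replicates 1 and 2 every WT array was above every KO array, and both WT replicate 3 arrays were inside or below the KO range. The difference over 3 times was -1.16 for probe set 1 (SE 0.40, adjusted p = 0.293) and -0.99 for probe set 2 (SE 0.33, adjusted p = 0.280). Within replicates 1 and 2 it was -1.58 (adjusted p = 0.00449) and -1.36 (adjusted p = 0.00484).

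The Pearson correlation of Ctse probe set 3 with probe sets 1 and 2 over the 17 arrays was -0.79 and -0.80. Probe sets 1 and 2 share an accession in the platform annotation that differs from that of probe set 3, and whether that accession belongs to Ctse was not checked here. The signals of these 2 probe sets are given as measured and are not read as the level of Ctse. The annotation of probe set 3 was not checked here either. Which of these opposite signals follows Ctse was not tested.

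Ctsc probe set 2 had a genotype difference on replicates 1 and 2 that was turned round on replicate 3. KO arrays of replicates 1 and 2 read 136 to 292, with a median of 205, and WT arrays of those replicates 427 to 1028, with a median of 808. On replicate 3 the KO arrays read 949 unstimulated, 1331 at 100 min and 1880.5 on the array labelled KO 400 min, and the WT arrays 613 at 100 min and 1071 at 400 min. KO minus WT was -1.92 within replicates 1 and 2 (adjusted p = 0.00449), and 1.12 at 100 min and 0.81 at 400 min on replicate 3. Over all arrays the difference was -0.98 (SE 0.54, adjusted p = 0.553). Ctsc probe set 3 was likewise -1.82 within replicates 1 and 2 (adjusted p = 0.00683), and 0.29 and 0.47 on replicate 3. Its same-numbered pairs of replicates 1 and 2 gave -2.77 and -4.34 at 100 min. There the KO arrays read 52.5 and 19.6, the latter under the floor of 22.0. At the other times these pairs gave -1.55 to -0.64. Within replicates 1 and 2, 5 of the 17 cathepsin probe sets, the 3 of Ctse and these 2 of Ctsc, were called over 3 times, where 1.99% of all probe sets were. Ctse probe set 3 was higher in KO cells and the others lower. Ctse probe sets 1 and 2 are counted by annotation and are not read as the level of Ctse. Ctsc probe set 1 was at 0.05 (limma adjusted p = 0.919). At single times the count within replicates 1 and 2 was 0 of 17 unstimulated (0.0912% of all probe sets), 1 at 100 min, Ctsc probe set 3 (0.304% of all), and 2 at 400 min, Ctse probe sets 1 and 2 (1.24% of all).

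The difference between these genotype differences was tested with a term added after the values had been seen. For Ctsc probe set 2 it was 2.87 (SE 0.39, adjusted p = 0.0285), the only call among the 17 cathepsin probe sets, where 0.081% of all probe sets were called. It kept its sign in all 17 fits without 1 array, at 2.54 to 3.20, and its call in 3 of them. Ctsc probe set 3 was at 2.58 (adjusted p = 0.0904), and Ctse probe sets 1 and 2 were at 2.03 (adjusted p = 0.0751) and 1.75 (adjusted p = 0.0904). Socs3 also read higher in KO and lower in WT cells on replicate 3 at 100 min than on the other replicates, as given above. The sex-linked signals of the replicate 3 arrays ran the same way as on the other arrays, with Xist at 408 to 993 in KO and 11.1 to 146 in WT cells and Eif2s3y at 17.04 to 81.9 in KO and 245 to 374 in WT cells.

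**Figure D3:**
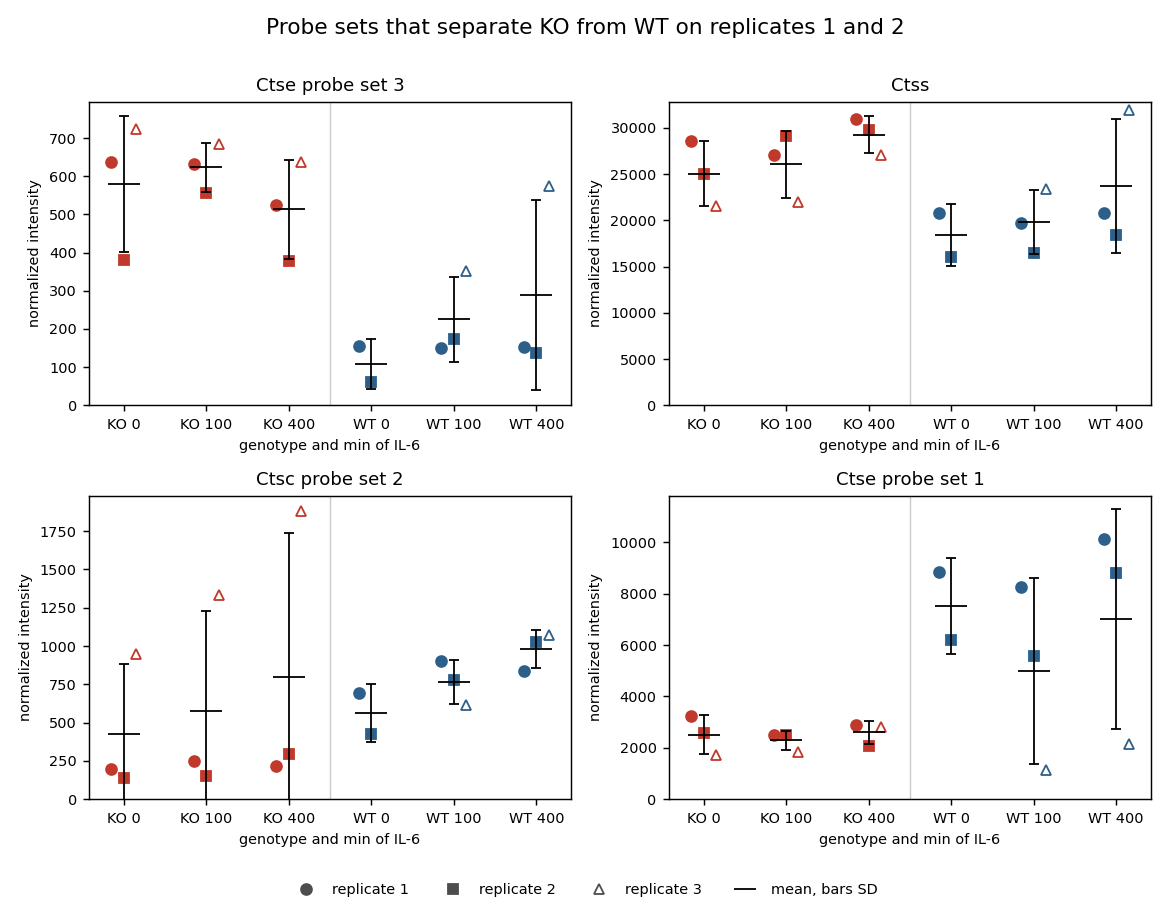
Normalized intensity (linear axis) of Ctse probe set 3, Ctss, Ctsc probe set 2 and Ctse probe set 1 by group, KO groups left of WT groups and times rising within each; points are single arrays, marker shapes give the replicate number, and bars give mean ± SD, cut off at 0 where the SD exceeds the mean. KO arrays of Ctse probe set 3 lie at 377 to 724 and WT arrays at 62.0 to 575, and the replicate 3 points of Ctsc probe set 2 lie at 949 to 1880.5 in KO cells, above the 136 to 292 of the other KO arrays.

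Ctss and Ctsl did not pass the test between genotypes. Ctss read 28540.1, 25018 and 21532 in KO unstimulated, 27041, 29113 and 22014 in KO 100 min and 30999.6, 29739.9 and 27041 in KO 400 min cells, against 20773 and 16032 in WT unstimulated, 19762, 16442 and 23364 in WT 100 min and 20773, 18425 and 31974 in WT 400 min cells. On replicates 1 and 2 the KO arrays, at 25018 to 30999.6, did not overlap with the WT arrays, at 16032 to 20773. On replicate 3 KO minus WT was -0.09 at 100 min and -0.24 at 400 min. The difference over 3 times was 0.40 (SE 0.15, adjusted p = 0.335), and 0.61 within replicates 1 and 2 (SE 0.13, adjusted p = 0.0594). For Ctsl it was -0.64 (SE 0.20, adjusted p = 0.238, interval -1.07 to -0.21), with KO arrays at 6797 to 22161 and WT arrays at 17309 to 24386. Within replicates 1 and 2 the Ctsl difference was smaller, at -0.40 (SE 0.11, adjusted p = 0.148), and on replicate 3 KO minus WT was -1.35 at 100 min and -0.50 at 400 min.

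For the other genes the genotype difference over 3 times was 0.08 for Ctsa, 0.02 for Ctsd, -0.09 for Ctsh, 0.15 for Ctsk and 0.10 for Ctsz, and between -0.43 and 0.04 for the 4 Ctsb probe sets. The interval for Ctsd reached from -0.32 to 0.35. Within replicates 1 and 2 these differences were 0.13 for Ctsa, 0.11 for Ctsd, 0.11 for Ctsh, 0.35 for Ctsk and 0.15 for Ctsz, and between -0.44 and 0.09 for the Ctsb probe sets, all uncalled. On replicate 3, KO minus WT at 100 and 400 min was 0.12 and 0.40 for Ctsa, 0.14 and -0.09 for Ctsd, and -0.31 and -0.22 for Ctsh. For Ctsk it was 0.04 and -0.32, for Ctsz -0.28 and -0.24, and over the Ctsb probe sets it ran from -1.44 to 0.45. Over the 17 probe sets the median difference was -0.07, against -0.01 over all tested probe sets.

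**Figure D4:**
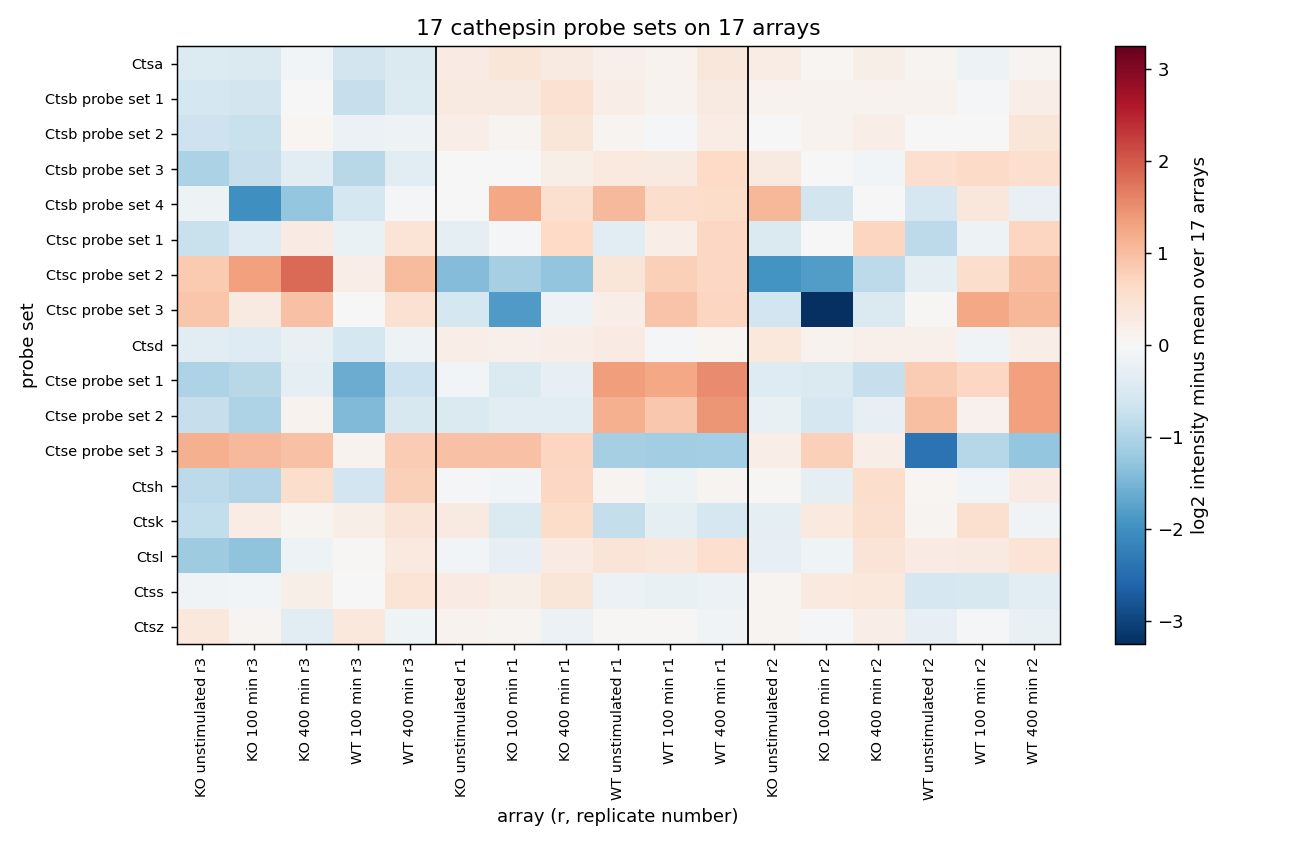
Log2 normalized intensity of each of the 17 cathepsin probe sets on each of the 17 arrays, as the difference from the probe set's mean over all arrays (colour scale, log2 units), with the replicate 3 arrays as the left block and KO arrays left of WT arrays in each block. Ctsa, Ctsd and Ctsb probe set 3 are below their mean on all 5 arrays of the replicate 3 block, and Ctsb probe set 1 on 4 of them, with the array labelled KO 400 min as the exception.

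Most cathepsin calls concerned the replicate 3 arrays. Compared with replicates 1 and 2, with group taken into account, 7 of the 17 probe sets were called, where 7.26% of all tested probe sets were. The 6 lower ones were Ctsa, Ctsb probe sets 1, 2 and 3, Ctsd and Ctsl, and the higher one was Ctsc probe set 2. The median over the 17 was -0.48, against -0.02 over all probe sets. The labels do not say what the number stands for.

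Ctsb probe set 1 read 30086, 29739.9 and 45655 on the KO replicate 3 arrays in order of time, and 26739.6 and 33336 on the WT replicate 3 arrays at 100 and 400 min. The 12 arrays of replicates 1 and 2 ran from 43773 to 63084, with a median of 50529.7. Only the array labelled KO 400 min replicate 3 reached into that range. The difference was -0.67 (adjusted p = 0.00945), and Ctsb probe set 3 fell by 0.92 (adjusted p = 0.00536) and probe set 2 by 0.50 (adjusted p = 0.0335). Probe set 4, the dimmest, was at -1.15 (adjusted p = 0.0937).

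Ctsa read 5192, 5093 and 6712 on the KO and 4688 and 5098 on the WT replicate 3 arrays, against 6391 to 9363 on replicates 1 and 2, with a median of 8035. The difference was -0.61 (adjusted p = 0.0123). Ctsd read 20516, 19412 and 21886 on the KO and 17618 and 23364 on the WT replicate 3 arrays, all below the 23898 to 32965 of replicates 1 and 2, whose median was 29267. That difference was -0.48 (adjusted p = 0.0176). Ctsl was -0.60 (adjusted p = 0.0297), and its replicate 3 arrays, at 6797 to 20992, overlapped with the others, at 13818 to 24386. Ctsc probe set 2 was 1.60 higher (adjusted p = 0.0478).

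The calls of Ctsa and of Ctsb probe sets 1 and 3 were kept in all 17 fits without 1 array. Ctsd kept its call in 15 of 17, Ctsl in 11, Ctsb probe set 2 in 7 and Ctsc probe set 2 in 4. Median centring in place of quantile normalization ended the calls of Ctsb probe set 1 (adjusted p = 0.0510) and Ctsc probe set 2 (adjusted p = 0.0708), and testing without the filter those of Ctsb probe set 2 (adjusted p = 0.0522) and Ctsc probe set 2 (adjusted p = 0.0633), which left 5 of the 7 in each case. The cathepsins called lower were spread over chromosomes 2, 7, 13 and 14.

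**Figure D5:**
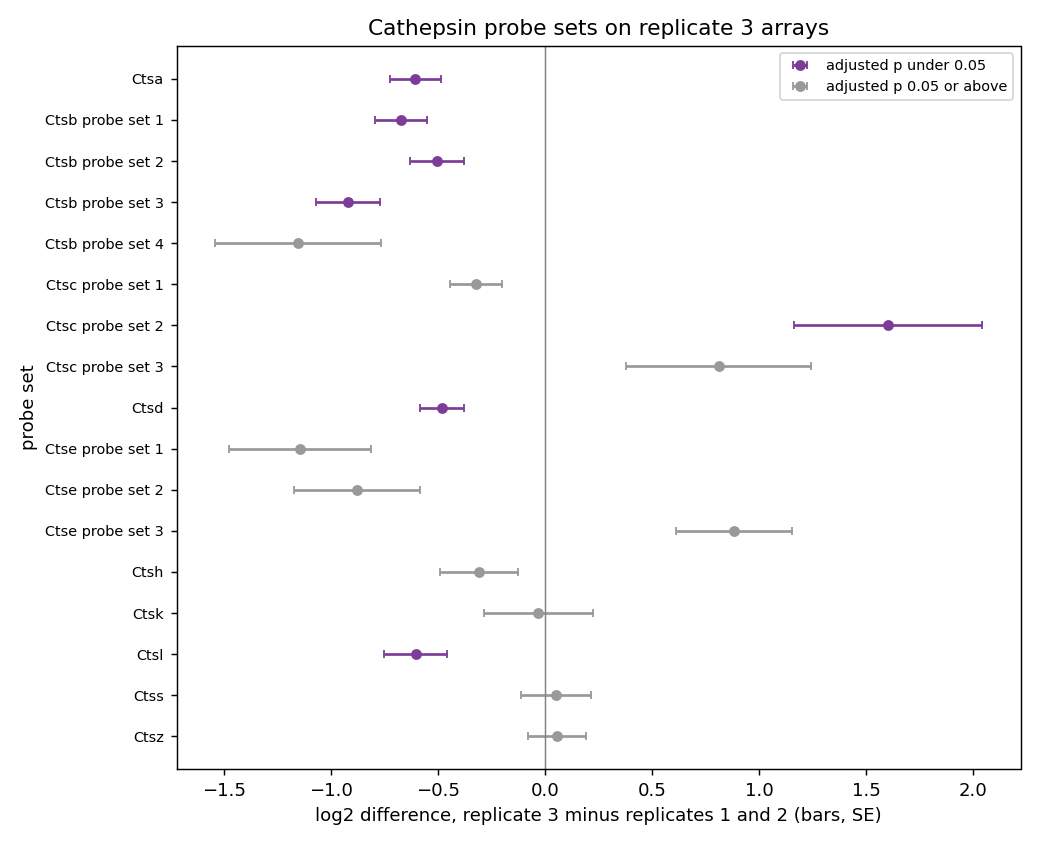
Log2 difference between the replicate 3 arrays (n = 5) and the arrays of replicates 1 and 2 (n = 12) for the 17 cathepsin probe sets, with group taken into account; bars are standard errors and colour marks probe sets called at an adjusted p under 0.05. Ctsa, Ctsb probe sets 1 to 3, Ctsd and Ctsl lie between -0.92 and -0.48, and Ctsc probe set 2 lies at 1.60.

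Some markers of other kinds of cell and of dividing cells moved with replicate 3 too, where 7.26% of all tested probe sets were called. Of 15 tested cell cycle genes 7 were called higher on replicate 3, among them Rrm2, a subunit of ribonucleotide reductase, by 2.64 (adjusted p = 1.21e-05), Cdk1 by 1.07, Bub1 by 0.96 and Aurka by 0.87. The summed signal of that list was 28708 to 46118 on replicate 3 and 22167 to 28984 on replicates 1 and 2. Of 11 macrophage markers 2 were lower, the mannose receptor Mrc1, which fell by 2.25 (adjusted p = 0.00111), and Csf1r, which fell by 0.51 (adjusted p = 0.0349), and their summed signal was 95789.9 to 105860 on replicate 3 and 97645 to 128738 on replicates 1 and 2. Of 9 tested markers of neutrophils and their precursors, Prtn3 and S100a9 were lower, and the list sums were 983 to 1284 on replicate 3 against 1329 to 2123. Of 7 B cell markers Ighm, the heavy chain of IgM, fell by 1.41 (adjusted p = 0.0117), and the list sums were 1602 to 2272 on replicate 3 against 1727 to 6942. No listed marker gene was at the floor on every array. The part of these in the cathepsin values was not tested.

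Other parts of the lysosome were compared by lists. Of 25 tested soluble hydrolases other than cathepsins, none was called for IL-6 or genotype. On replicate 3, 2 were lower, legumain (Lgmn), a cysteine protease that processes cathepsins to their mature chains, by -1.15 (adjusted p = 0.00519) and the hexosaminidase subunit Hexa by -0.77 (adjusted p = 0.0117). That count was near the 7.26% called over all tested probe sets. The list median was -0.27. Of 19 genes of lysosomal membranes and sorting, Ap1b1, a subunit of the adaptor that loads clathrin vesicles at the Golgi, was 0.97 higher at 400 min over both genotypes (adjusted p = 0.0303) and 1.19 in KO cells. Clcn7, the lysosomal chloride transporter, was 0.76 higher in KO than in WT cells (adjusted p = 0.0219), and Laptm4a was 0.88 higher on replicate 3. Each was the only call of its list in that comparison. Over all tested probe sets, 1.5% were called at 400 min over both genotypes, 1.82% in KO cells and 0.446% between genotypes over 3 times. None of 15 genes of the vacuolar proton pump, which acidifies lysosomes, and none of 6 cathepsin inhibitors such as cystatins was called in any of these comparisons. Of 4 other genes named cathepsin on the array, 1 passed the filter and was not called, and Ctsg, Ctsw and Cts7 did not pass it.

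MHC class II genes, whose invariant chain is cut by cathepsins S and L, were called on replicate 3 alone. H2-Aa fell by 1.54, H2-Eb1 by 1.12 and Cd74, the invariant chain itself, by 1.08 (adjusted p = 0.0308, 0.0258 and 0.0229). These were 3 of 11 tested genes, where 7.26% of all tested probe sets were called, and the list median was -0.11. Their medians at 400 min over both genotypes and between KO and WT were 0.37 and 0.08, with no call. Of 6 transcription factors linked to lysosomal genes, Irf8 fell by 0.93 and Mitf was higher by 0.93 on replicate 3, and none was called for IL-6 or genotype.

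The genes most like each called member over the 17 arrays, by Pearson correlation of log2 values among 7063 genes, are given as a description. Ctsa and Ctsb probe set 1 were each other's nearest, at 0.96, followed for both by Supt5 at 0.93 and 0.92. Ctsc probe set 1 was nearest to Osbpl11 (0.89) and Tgfbi (0.88), Ctsd to B4galt6 (0.91) and Tsc2 (0.89), and Ctsl to Bcas3 (0.89) and C1qc (0.87). The probe set of highest mean that the annotation gives to Ctse, probe set 1, was not called and is not read as Ctse, and it was nearest to Gas6 (0.91) and Slc9a3r1 (0.91). The called Ctse probe set 3, looked at after its values had been seen, was nearest to Mmp12, a macrophage metalloelastase, at 0.90. The arrays share genotype groups and the split by replicate number, and both enter these correlations.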

How the data were processed

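Total RNA of macrophages had been hybridised to 17 Affymetrix-type arrays, and groups and replicate numbers were taken from the labels' titles. The authors deposited linear intensities of 12488 probe sets on each array, ranging from 0.3 to 91970.4. Their software, background correction, scaling and genome build are not given in the sources, and the table has no detection calls. Array medians of the deposited intensity were 164.25 to 216.95, and correlations within groups were 0.855 to 0.917. Precision is limited by the number of arrays.

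The intensities were quantile normalized, set to a floor at their 10th percentile (22.0) and log2 transformed, so that the log2 values are computed here from the deposited intensities. The 66 control probe sets were left out, and a probe set was tested if it exceeded the 40th percentile of 2 or more arrays (9871 passed). Differences were tested with limma (version 3.58.1, R 4.3.3), with 1 mean per group over all 17 arrays, eBayes (prior degrees of freedom 2.6, residual 11), two-sided, with Benjamini-Hochberg adjustment over all probe sets tested in each comparison, and was tested on simulated data. Fold changes are fitted log2 differences of these values put back on the linear scale. Replicate 3 was compared with replicates 1 and 2 with group in the model.

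Symbols came from the platform annotation (1 symbol for 10855 probe sets, several genes for 396, none for 1237). Named were every cathepsin probe set, up to 4 called genes of each other list with the largest change per comparison, the 2 genes most like each called member, and Socs3. The members and lists were chosen with earlier results of these data known. Alternatives were median centring, no filter, an offset in place of the floor, fits on the compared groups alone, within replicates 1 and 2, with replicate 3 as a batch term, with the replicate number as a block, and without each array.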

Additional observations from a re-analysis of the deposited data

Results flagged for a closer look

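Ctsc probe set 2 differed between KO and WT cells in one direction on replicates 1 and 2 and in the other on replicate 3. The KO minus WT difference on replicate 3 less that on replicates 1 and 2 was 2.87 on the log2 scale (SE 0.39, limma adjusted p = 0.0285), by a term added after the values had been seen. KO minus WT was 1.12 at 100 min and 0.81 at 400 min on replicate 3, against -2.39 to -1.65 for the same-numbered pairs of arrays of replicates 1 and 2. Leaving out 1 array gave adjusted p values up to 0.122 and kept the call without WT 400 min replicate 1, KO 100 min replicate 1 or WT 400 min replicate 3 alone. The cause was not tested.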

How the results depend on the processing

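No direction of a called cathepsin value was reversed under the alternatives listed above. On replicate 3 alone, with 1 array a group, KO minus WT of Ctsc probe sets 2 and 3 and Ctse probe sets 1 and 2 was above 0. Their differences called within replicates 1 and 2 were below 0. Ctsc probe set 1 at 400 min over both genotypes was called under each alternative run, at adjusted p of 0.000768 to 0.0187 for settings other than leaving out an array. The count of cathepsin probe sets called in KO cells at 400 min, 1, became 0 with median centring (adjusted p of Ctsc probe set 1 = 0.105), with no filter (0.0545), with only the groups compared (0.188) and within replicates 1 and 2, and was 0 to 1 without single arrays. Between KO and WT, the count within replicates 1 and 2 was 1 at 100 min (Ctsc probe set 3; 0.304% of all probe sets called) and 2 at 400 min (Ctse probe sets 1 and 2; 1.24% of all) in place of 0, and 5 over 3 times (Ctse probe sets 1 to 3, Ctsc probe sets 2 and 3; 1.99% of all) in place of 1, which was 0 to 1 without single arrays. On replicate 3 the count of 7 was 3 to 8 without single arrays, with 3 without KO 100 min replicate 3 or KO unstimulated replicate 3, and 4 without KO 100 min replicate 2 or KO unstimulated replicate 1 or 2, 5 with median centring or no filter, and 9 with an offset in place of the floor. Ctse probe sets 1 and 2 enter these counts by annotation and are not read as the level of Ctse. The causes were not tested.

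Deviations from the group means correlated at 0.10 to 0.24 (median 0.14) between arrays of different groups that share number 3, at -0.02 to 0.11 for number 1 and at -0.01 to 0.09 for number 2, against a median of -0.04 for different numbers. Number 3 thus tied its arrays, while numbers 1 and 2 fell short of the 0.1 asked of every pair, so the numbers were not taken as pairs. With the replicate number as a block, Ctsc probe set 1 in KO cells at 400 min was 1.04 (adjusted p = 0.00858) and Ctse probe set 3 between KO and WT 1.64 (adjusted p = 0.00823). With replicate 3 alone as a batch term the adjusted p values were 0.00710 and 0.00730.

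Over all probe sets, calls without single arrays numbered 56 to 182 at 400 min over both genotypes, against 148, 73 to 229 in KO cells at 400 min, against 180, and 10 to 82 between KO and WT over 3 times, against 44. Other settings gave 108 to 311, 52 to 332 and 40 to 196. On replicate 3 they gave 308 to 703 without single arrays, against 717.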
